A study of Mus musculus with 2 samples.

Results

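Natural killer (NK) cells of epididymal white adipose tissue were described in single-cell RNA sequencing of the stromal vascular fraction, the cells left after digestion once fat cells have been removed. The tissue came from mice fed a high-fat diet for 10 weeks. The libraries were 1 from mice whose Camk2d was deleted conditionally, in the myeloid lineage, and 1 from wild-type mice, here called the knockout and the wild-type library. The labels name neither the Cre driver nor the deleted exons, and they give neither the age of the mice nor how many a library holds. NK cells were taken by a fixed rule on transcripts. A barcode needed 1500 or more UMIs (unique molecular identifiers, each a counted transcript), 500 or more genes and no more than 15% of its UMIs from mitochondrial genes. It then needed at least 2 UMIs of Ncr1, Klrb1c and Klre1 together, at most 1 UMI of Cd3d, Cd3e and Cd3g together, C1qa, C1qb and C1qc below 10 and Col1a1, Col3a1 and Dcn below 30 per 10000 UMIs. This left 391 NK cells among 21117 barcodes that passed the quality limits, 189 of 8032 in the knockout library and 202 of 13085 in wild type.

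NK cells are innate lymphocytes that kill target cells with perforin and granzymes and that release interferon gamma and chemokines. Activating receptors and inhibitory receptors for MHC class I, among them the Ly49 family encoded by the Klra genes in mice, set whether a target is attacked. In adipose tissue NK cells lie beside group 1 innate lymphoid cells (ILC1), tissue-resident relatives that share Ncr1 and Klrb1c but are known for Itga1, Cd200r1 and Il7r and for little Eomes. In obesity, interferon gamma from both is a known signal to adipose macrophages. Camk2d encodes the delta subunit of the calcium/calmodulin-dependent protein kinase II.

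The promoters of 4 genes on which the description of these cells turns are shown: Ncr1 because it defines the gate, Klra8 and Gzma because they are used to define the subsets described further on, and Gzmb because it is a granule gene with one of the larger differences between the libraries. They come from RefSeq (GRCm38.p6) and cover 250 bases before and 50 after the gene's start, 5′ to 3′ on the gene's strand. Capitals mark the Runx core TGTGGT (or ACCACA, its other strand) and the T-box motif TCACAC (or GTGTGA). Runx3 and the T-box factors Eomes and Tbx21 are factors that NK cells are known to need. The windows are chr7:4337465-4337764 (plus strand) for Ncr1, chr6:130129849-130130148 (minus strand) for Klra8, chr13:113100932-113101231 (minus strand) for Gzma and chr14:56262285-56262584 (minus strand) for Gzmb. For Ncr1 and Klra8 the table lists 2 starts, of which the first is shown.
Ncr1: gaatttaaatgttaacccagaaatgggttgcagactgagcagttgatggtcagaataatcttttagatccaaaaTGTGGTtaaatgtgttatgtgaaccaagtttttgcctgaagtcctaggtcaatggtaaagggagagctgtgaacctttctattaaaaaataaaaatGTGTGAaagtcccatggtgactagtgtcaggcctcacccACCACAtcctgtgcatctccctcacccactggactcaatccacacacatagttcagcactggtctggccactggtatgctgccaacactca
Klra8: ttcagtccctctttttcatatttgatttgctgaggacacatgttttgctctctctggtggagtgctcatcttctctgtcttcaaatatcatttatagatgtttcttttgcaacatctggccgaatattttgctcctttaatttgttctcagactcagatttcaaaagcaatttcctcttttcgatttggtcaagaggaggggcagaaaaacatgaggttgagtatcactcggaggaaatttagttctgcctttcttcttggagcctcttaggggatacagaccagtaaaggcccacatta
Gzma: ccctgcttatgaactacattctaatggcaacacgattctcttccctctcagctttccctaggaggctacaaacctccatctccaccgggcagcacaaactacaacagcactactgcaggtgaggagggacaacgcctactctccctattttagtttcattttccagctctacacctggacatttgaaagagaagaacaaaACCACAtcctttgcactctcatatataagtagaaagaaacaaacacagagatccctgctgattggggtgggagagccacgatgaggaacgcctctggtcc
Gzmb: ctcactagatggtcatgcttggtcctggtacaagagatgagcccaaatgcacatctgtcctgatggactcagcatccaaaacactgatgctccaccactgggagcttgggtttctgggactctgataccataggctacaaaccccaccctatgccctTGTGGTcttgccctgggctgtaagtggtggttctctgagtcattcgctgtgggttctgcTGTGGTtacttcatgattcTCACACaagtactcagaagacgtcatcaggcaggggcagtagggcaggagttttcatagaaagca
The Runx core was found 2 times in the Ncr1 window, 1 time in the Gzma window and 2 times in the Gzmb window. The T-box motif was found 1 time each for Ncr1 and Gzmb, and neither motif was found in the Klra8 window. No match of one motif overlapped a match of the other. For scale, 16.8% of the 32851 promoter windows in the table hold the Runx core and 14.5% the T-box motif on either strand. These are matches of letters, and binding was not measured.

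The knockout library held 10631 barcodes with 87015918 UMIs and the wild-type library 15555 barcodes with 75436677 UMIs. Kept barcodes had a median of 9652 UMIs in knockout and 3799 UMIs in wild type. The NK cells differed less in depth, with a median of 6066 UMIs in the knockout library (range 2533 to 23715) and 4313 UMIs in wild type (range 1766 to 20377). Together they gave 1268188 and 926249 UMIs. Of all barcode sequences, 48 occurred in both libraries, and 0 of these were NK cells in both. With 1 library per genotype there is no replicate: no difference between the genotypes could be tested, and every interval below is a 95% interval that covers counting error only.

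The 3 gate markers together had a median of 7 UMIs per NK cell in the knockout library and 4 in wild type. Cells just inside the rule, with exactly 2 marker UMIs, numbered 5 in knockout and 49 in wild type. Just outside, 25 knockout and 65 wild-type barcodes met every other limit with 1 marker UMI. Barcodes with enough marker UMIs but too many Cd3 UMIs numbered 119 in knockout and 71 in wild type, and those over the C1q or stromal limit 27 and 66.

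The NK label was held against genes that the rule did not use. No gate for ILC1 was made, so these genes were not compared with ILC1. Eomes, of which ILC1 are known to have little, had a UMI in 42.3% of knockout and 43.6% of wild-type NK cells before thinning. Nkg7, a membrane protein of cytotoxic granules, was at 1519 counts per 1000000 UMIs (CPM) in knockout and 1163 CPM in wild-type NK cells. In the B-cell gate, which should lack it, Nkg7 had a UMI in 0.278% of knockout and 0.190% of wild-type cells after every cell was thinned to 1500 UMIs, against 87.8% and 72.8% of NK cells. After the same thinning, Prf1, which encodes perforin, had a UMI in 40.7% of knockout and 37.6% of wild-type NK cells, and in 0.278% and 0.190% of B cells. Tyrobp, the adaptor DAP12 of activating receptors and also a myeloid gene, was at 2038 and 2000 CPM, but it was at 631 and 1010 CPM in all other barcodes and had a UMI in 12.2% of knockout and 37.0% of wild-type B cells after thinning. Il2rb, the shared receptor chain for interleukin 2 and interleukin 15, was at 942 CPM in knockout and 704 CPM in wild-type NK cells. The alpha chain of the T-cell receptor, Trac, was at 11.8 and 8.64 CPM, and Cd8a had 0 UMIs in knockout and 1.08 CPM in wild type. Transcripts of the beta constant regions, which NK cells are known to make without a rearranged receptor, were present, with Trbc1 at 397 CPM in knockout and 298 CPM in wild-type NK cells and Trbc2 at 392 and 221 CPM. Trbc1 was close to its level in T cells (323 CPM in knockout, 287 CPM in wild type), whereas Trbc2 in T cells was at 1336 and 822 CPM.

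Against T cells of the same library (1003 knockout and 776 wild-type cells with at least 2 Cd3 UMIs and 0 gate-marker UMIs), 92 of 2322 genes were at least 2-fold higher in NK cells in both libraries (3.96%), and 60 of 2268 were at least 2-fold lower in both (2.65%). Since both gates are chosen by transcripts, this describes the gates. The 12 genes with the highest ratio in the library where it was lower were Gzma, Klra4, Klra8, Styk1, Klrb1a, Klri2, Klra3, Klra7, Klra9, Car2, Atp1b1 and Klrb1b. Most encode lectin-like receptors. Of the 12, 9 lie on mouse chromosome 6 between positions 128609227 and 131353597 (GRCm38). They are the Klr genes, in the NK gene complex of lectin-like receptors, and Styk1, which lies at the upper end of that span. Gzma, the tryptase granzyme A, was at 3516 CPM in knockout NK cells, against 14.1 CPM in knockout T cells, and at 2336 CPM in wild-type NK cells, against 4.03 CPM in wild-type T cells. Gzmk, granzyme K, ran the other way: it had 2.37 CPM in knockout NK cells and 175 CPM in knockout T cells, and 0 UMIs in wild-type NK cells and 69.4 CPM in wild-type T cells. Car2, a carbonic anhydrase, was at 154 CPM in knockout NK cells (7.13 CPM in T cells) and 118 CPM in wild-type NK cells (2.30 CPM in T cells). Some cytotoxic genes separated NK cells poorly from CD8 T cells. Nkg7 in the CD8 T gate differed from NK cells by a log2 ratio (NK over CD8 T) of 0.03 in knockout and 0.21 in wild type, and the chemokine Ccl5 was lower in NK than in CD8 T cells, at -0.53 and -0.68. The Ly49 genes are near-copies of each other, so reads may have been split between them.

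Against the ILC2 gate (50 knockout and 65 wild-type cells), 217 of 2322 genes were at least 2-fold higher in NK cells in both libraries (9.35%) and 268 of 2250 lower in both (11.9%). That gate asked for at least 2 UMIs of Gata3 and Il1rl1 together, at most 1 Cd3 UMI and 0 gate-marker UMIs. This comparison too describes the gates, and the ILC2 were chosen for Gata3. Gata3, the defining factor of ILC2, was at 60.7 CPM in knockout NK cells and 160 CPM in knockout ILC2. In the wild-type library Gata3 was at 54.0 CPM in NK cells and 237 CPM in ILC2. Eomes was at 155 CPM in knockout and 180 CPM in wild-type NK cells, against 0 UMIs in knockout and 2.96 CPM in wild-type ILC2.

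NK cells made up 2.35% of kept barcodes in the knockout library (exact binomial interval 2.03 to 2.71) and 1.54% in wild type (1.34 to 1.77). The size of this difference followed the denominator. Among barcodes with a UMI of Ptprc, the pan-leukocyte gene CD45, the shares were 4.80% and 2.75%. With barcodes rich in haemoglobin left out they were 2.38% and 2.07%, and with limits of 3000 UMIs, 1000 genes and 10% mitochondrial UMIs they were 2.53% in knockout and 2.36% in wild type, with overlapping intervals. With every barcode thinned to 1500 UMIs before gating, which leaves many cells under 2 marker UMIs, the shares were 1.23% and 0.558%. Among cells of the NK, T, ILC2 and B gates together, a denominator chosen after seeing the data, the order turned: 11.8% in the knockout (10.3 to 13.5) and 12.9% in wild type (11.3 to 14.7).

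**Figure D1:**
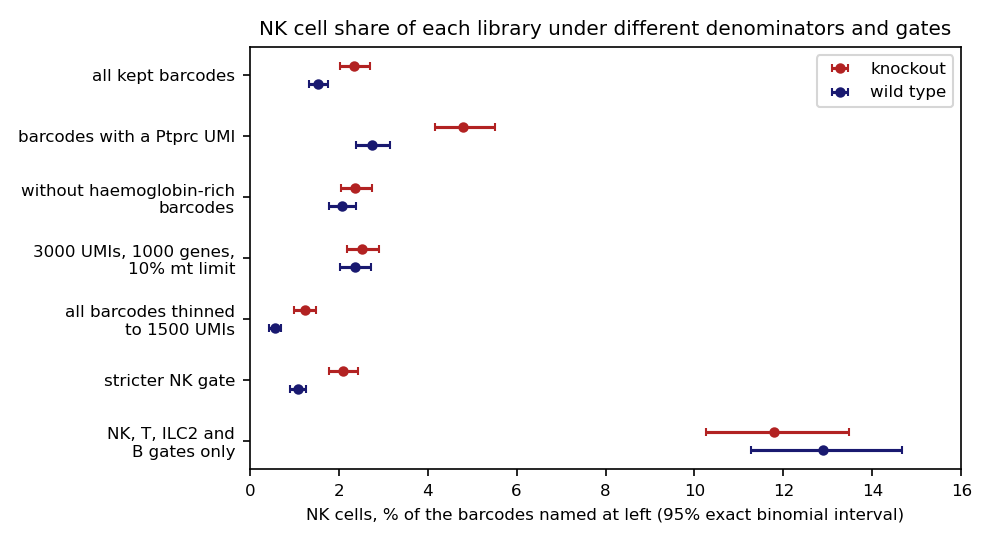
NK cells as a percent of the barcodes named at left, in the knockout library (upper point of each pair) and the wild-type library (lower point), with 95% exact binomial intervals. The share was 2.35% and 1.54% of all kept barcodes, and 11.8% and 12.9% of the 4 lymphocyte gates.

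Within the NK gate, cells were split in 3 by rules chosen after seeing the data. Cells with Gzma at 50 or more per 10000 UMIs were called Gzma-high. The other cells were split by whether they had any UMI of Eomes, Klra4 and Klra8 together. Eomes encodes a T-box factor of NK cells, and Klra4 and Klra8 the activating receptors Ly49D and Ly49H. The Eomes/Ly49-negative cells made up 40.7% of knockout NK cells (77 cells, interval 33.7 to 48.1) and 29.7% of wild-type NK cells (60 cells, 23.5 to 36.5). The Eomes/Ly49-positive cells made up 34.9% (66 cells, 28.1 to 42.2) and 53.5% (108 cells, 46.3 to 60.5), and the Gzma-high cells 24.3% (46 cells, 18.4 to 31.1) and 16.8% (34 cells, 11.9 to 22.7). Between the libraries the intervals of the positive share did not overlap, and those of the other subsets did. After thinning to 1500 UMIs the order between libraries held, at 50.8% and 42.6% for negative, 25.9% and 40.1% for positive and 23.3% and 17.3% for Gzma-high cells. Near the limits lay 8 knockout and 11 wild-type cells with Gzma between 40 and 60 per 10000 UMIs, and 9 knockout and 21 wild-type cells with exactly 1 UMI of Eomes, Klra4 and Klra8.

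The Eomes/Ly49-negative cells had the highest sum of the list of ILC1 and tissue-resident genes, at 4014 CPM in knockout and 2989 CPM in wild type, against 2102 and 2091 CPM in positive and 1652 and 863 CPM in Gzma-high cells. Itga1, the integrin CD49a, was at 121 CPM in knockout and 58.5 CPM in wild-type negative cells, against 28.0 and 9.87 CPM in positive cells. Il7r, the interleukin 7 receptor, was at 168 CPM in knockout and 114 CPM in wild-type negative cells, against 36.0 and 43.4 CPM in positive cells and 11.7 and 15.5 CPM in Gzma-high cells. Cxcr6, a chemokine receptor of tissue-resident lymphocytes, was at 39.1 and 41.3 CPM in negative cells, and at 0 and 1.97 CPM in positive cells. The inhibitory receptor gene Cd200r1 was at 64.6 and 31.0 CPM in negative cells, against 7.99 and 13.8 CPM in positive cells. Summed T-cell and ILC2 markers were also highest in negative cells. The summed T-cell markers were at 1106 and 781 CPM in negative cells, against 657 and 481 CPM in positive cells. Most of this sum was Trbc1, at 454 CPM in knockout and 334 CPM in wild-type negative cells, and Trbc2, at 603 and 402 CPM. In positive cells Trbc1 was at 408 and 290 CPM and Trbc2 at 214 and 126 CPM. The rule lets through at most 1 UMI of Cd3d, Cd3e and Cd3g. Whether T cells add to the sum in negative cells was not tested. The summed ILC2 markers were at 288 and 224 CPM, against 122 and 114 CPM, and of these Rora, an orphan nuclear receptor of innate lymphoid cells, made up 217 and 110 CPM in negative cells. Cell by cell, 14.9% of the 47 knockout cells with an Itga1 UMI also had an Eomes UMI, against 51.4% of the other knockout NK cells. In the wild-type library these shares were 19.0% of 21 cells and 46.4%. In both libraries Itga1 and Eomes thus tended to lie in different cells of the gate.

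The Gzma-high cells had the highest sum of the list of mature circulating NK genes, at 7050 CPM in knockout and 3902 CPM in wild type, against 2829 and 2879 CPM in positive and 2751 and 2201 CPM in negative cells. Its members did not all follow: Ly6c2, a surface antigen of the Ly6 family, was at 1161 and 482 CPM in Gzma-high cells and at 1691 and 1248 CPM in negative cells. Prf1 was at 1492 CPM in knockout and 630 CPM in wild-type Gzma-high cells, against 390 and 375 CPM in positive and 147 and 79.1 CPM in negative cells. Gzmb, granzyme B, was at 1134 and 505 CPM, against 65.9 and 84.8 CPM in positive and 74.4 and 61.9 CPM in negative cells. Itgam, the integrin CD11b, was at 238 CPM in knockout and 187 CPM in wild-type Gzma-high cells, against 15.7 and 13.8 CPM in negative cells. S1pr5, a sphingosine-1-phosphate receptor for exit from tissue, was at 54.6 and 54.4 CPM, and at 1.96 CPM and 0 UMIs in negative cells. The fractalkine receptor Cx3cr1 had UMIs in Gzma-high cells at 179 CPM in knockout and 38.9 CPM in wild type, and elsewhere only at 1.97 CPM in wild-type positive cells. Cd27, a receptor lost as NK cells mature, was lower there, at 66.2 and 85.5 CPM, than in positive cells, at 260 and 160 CPM.

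**Figure D2:**
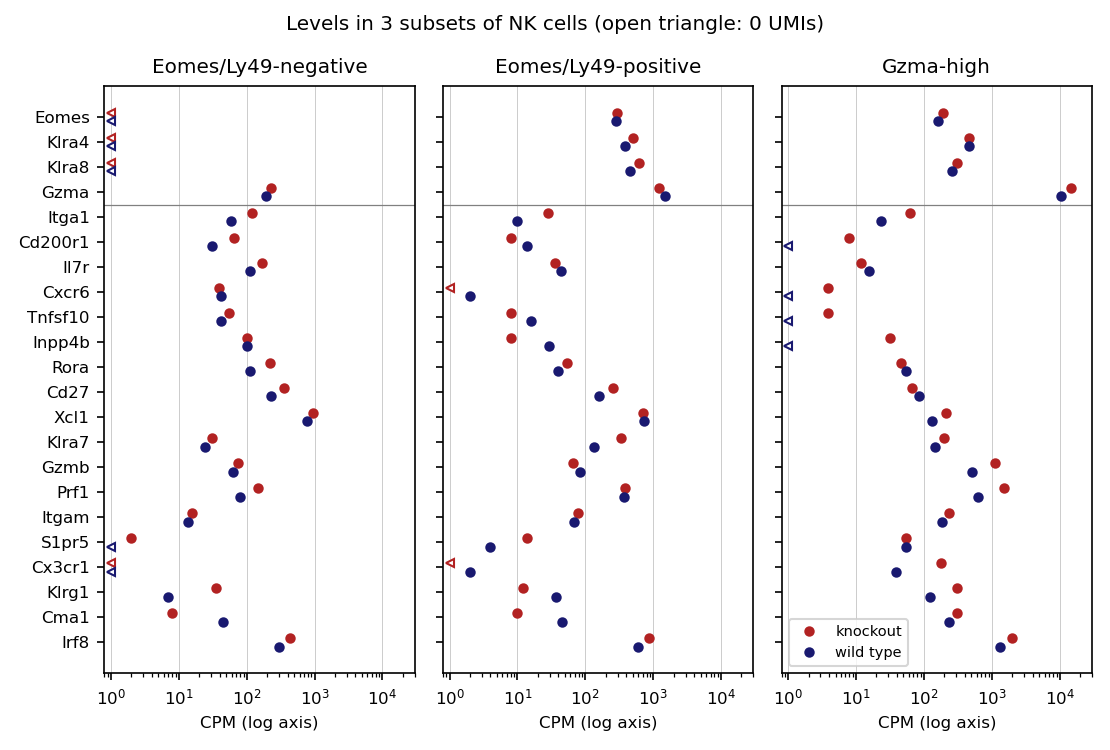
Levels of 22 genes in the 3 subsets of NK cells, in CPM on a log axis, knockout above wild type in each pair; the 4 genes above the line defined the subsets and open triangles mark 0 UMIs. Itga1, Il7r and Cxcr6 were highest in Eomes/Ly49-negative cells, and Gzmb, Prf1, Itgam and Cx3cr1 in Gzma-high cells, in both libraries.

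Camk2d, the targeted gene (protein-coding, chr3:126596302-126846326, plus strand, GRCm38), did not differ beyond counting error in NK cells. It had 54 UMIs in knockout and 32 UMIs in wild-type NK cells, at 42.6 CPM and 34.5 CPM, a log2 ratio of 0.30 (-0.36 to 0.98). In T cells it was at 59.4 and 57.0 CPM. The labels place the knockout in myeloid cells but name no Cre driver, so whether Camk2d was deleted in NK cells is not known. Also, 3′ counts outside the deleted exons would not show a deletion. After thinning, Camk2d had a UMI in 7.41% of knockout and 4.95% of wild-type NK cells, against 22.8% and 20.3% of B cells. Its relative Camk2g was at 54.4 and 42.1 CPM, Camk2b at 14.2 and 13 CPM, and Camk2a at 0.789 and 2.16 CPM. None of the 3 members at 10 CPM or more differed 1.5-fold, and their median of 0.30 was -0.12 when scaled to genes enriched in NK cells (defined in the next comparison).

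Between the libraries, 2629 genes had a mean of 50 CPM or more in NK cells with at least 30 UMIs in the higher library. Of these, 29 were at least 2-fold higher in knockout NK cells (1.1%) and 81 at least 2-fold lower (3.08%), with a median log2 ratio (knockout over wild type) of 0.10 over all. The 2 directions differed in kind of gene. Genes were called NK-enriched where all other kept barcodes had at most 0.25 of the NK level in both libraries. Of 178 such genes, 11 were 2-fold higher and 0 lower, at a median of 0.42. Of 576 genes with a higher level in the other barcodes than in NK cells in both libraries, 3 were higher and 76 lower, at a median of -0.18. Scaling to the NK-enriched genes, an alternative chosen after seeing the data, moved every log2 ratio down by their median of 0.42 and left 8 genes higher and 149 lower, whereas TMM and median-of-ratios scaling moved it by 0.022 and 0.032.

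**Figure D3:**
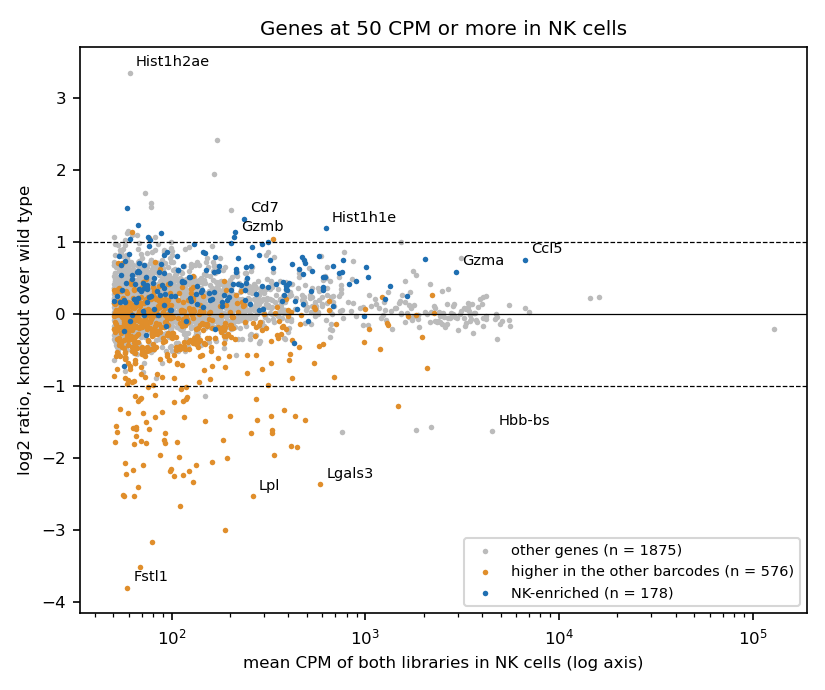
Log2 ratio, knockout over wild type, against the mean level of each gene in NK cells in CPM (log axis), for genes at 50 CPM or more; dashed lines mark 2-fold. Of 178 NK-enriched genes 11 lay above the upper line and 0 below the lower one, and of 576 genes higher in the other barcodes 76 lay below the lower line.

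Gene lists of NK biology were read at 10 CPM or more and 1.5-fold. At that level 837 of all 7427 genes were higher in knockout NK cells (11.3%) and 988 lower (13.3%), with a median log2 ratio of 0.04. Among the 290 NK-enriched genes, 93 were higher (32.1%) and 5 lower (1.72%), with a median of 0.41. Without markers of other cell types, the lists held 337 genes in all, of which 290 were measured, 69 higher and 27 lower.

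Inhibitory receptors had the highest median ratio of the receptor lists. Of 9 measured inhibitory receptors, 6 were higher and 0 lower, at a median of 0.83, or 0.41 when scaled to NK-enriched genes. Within subsets the median was 0.99 in Eomes/Ly49-negative, 0.71 in Eomes/Ly49-positive and 0.23 in Gzma-high cells. Klrc1, which encodes the inhibitory receptor NKG2A, was at 386 CPM in knockout and 198 CPM in wild-type NK cells, a log2 ratio of 0.97 (0.72 to 1.22). Its partner Klrd1, CD94, was at 600 and 345 CPM (0.80, 0.61 to 0.99). Klrg1, a receptor of terminally mature cells, was at 82.0 and 39.9 CPM (1.04, 0.48 to 1.62). It was at 312 and 124 CPM in Gzma-high cells but at 12 CPM in knockout and 37.5 CPM in wild-type Eomes/Ly49-positive cells. Ctla4, the member with the largest ratio, had 38 UMIs in knockout and 4 UMIs in wild-type NK cells. Of 14 measured activating receptors, 4 were higher and 1 lower, at a median of 0.44. Klrk1, NKG2D, was at 726 CPM in knockout and 506 CPM in wild-type NK cells (0.52, 0.36 to 0.68).

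The Ly49 genes differed between the libraries to unequal degrees. Of 6 measured, 3 were higher and 0 lower. Klra3, Klra7 and Klra1, for the inhibitory receptors Ly49C, Ly49G and Ly49A, were at 172, 187 and 44.2 CPM in knockout NK cells, against 87.4, 103 and 17.3 CPM in wild-type NK cells. Klra4 was at 289 CPM in knockout and 277 CPM in wild-type cells, a log2 ratio of 0.06 (-0.18 to 0.29), and Klra8 at 303 and 288 CPM (0.07, -0.16 to 0.30). Within Eomes/Ly49-positive cells, Klra7 was at 340 CPM in knockout and 136 CPM in wild type (1.32, 0.91 to 1.74). Of the gate markers, Ncr1 was at 392 and 345 CPM (0.18), Klrb1c at 413 and 343 CPM (0.27) and Klre1 at 406 and 261 CPM (0.64); the rule used all 3, so these are descriptions of the gate. Their median was 0.27, and -0.15 when scaled to NK-enriched genes.

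Of 13 measured granule genes, 6 were higher in knockout NK cells and 1 was lower, at a median of 0.47, or 0.05 when scaled to NK-enriched genes. Gzmb was at 285 CPM in knockout and 136 CPM in wild-type NK cells, a log2 ratio of 1.07 (0.77 to 1.37), with a UMI after thinning in 22.2% of knockout and 19.8% of wild-type cells. Prf1 was at 515 and 317 CPM (0.70, 0.50 to 0.90). Within Gzma-high cells the ratio was 1.17 (0.77 to 1.58) for Gzmb and 1.25 (0.90 to 1.61) for Prf1. Within Eomes/Ly49-positive cells it was -0.36 (-1.06 to 0.32) for Gzmb and 0.06 (-0.24 to 0.35) for Prf1, and the difference between subsets was not tested. Gzma was at 3516 and 2336 CPM over all NK cells (0.59): 48.7% of knockout and 60.9% of wild-type cells had a UMI after thinning, with overlapping intervals. The proteinase inhibitor Serpinb9, which shields cells from their own granzyme B, was at 602 and 356 CPM (0.76, 0.57 to 0.95). Lamp1, a lysosomal membrane protein, was the lower one, at 110 CPM in knockout and 206 CPM in wild-type NK cells, but its level in the other barcodes was above that in NK cells (530 and 667 CPM).

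Among 8 measured cytokines and chemokines, 2 were higher and 3 lower. The higher ones were Ccl5, at 8416 CPM in knockout and 4980 CPM in wild-type NK cells (0.76, 0.71 to 0.81), and Ccl4, at 835 and 527 CPM (0.66, 0.51 to 0.82). Both encode chemokines that attract leukocytes. Ccl5 differed to a similar degree in T cells, at 7459 CPM in knockout and 4526 CPM in wild type (0.72). In the other barcodes Ccl5 was at 815 and 484 CPM. Ifng, interferon gamma, was at 73.3 and 55.1 CPM, a ratio of 0.41 (-0.09 to 0.94) that does not separate the libraries beyond counting error. Xcl1, a chemokine for dendritic cells, was at 703 and 653 CPM (0.11). The lower ones were Flt3l, Tnf and Ccl9. Ccl9, at 35.5 and 170 CPM, had more in the other barcodes (364 and 520 CPM). So did Tnf, at 8.67 and 29.1 CPM in NK cells and 71.8 and 76.8 CPM in the other barcodes. Tnf was also lower in knockout T cells (-1.11) and B cells (-1.61).

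Of 14 measured cytokine receptors, 5 were higher and 1 lower, among them Ifngr1 at 1223 CPM in knockout and 781 CPM in wild-type NK cells and Il2rg, the common gamma chain, at 261 and 170 CPM. Of 19 trafficking genes, 9 were higher and 0 lower. Itga1 was at 72.5 and 27.0 CPM (1.43, 0.78 to 2.13), and also differed within Eomes/Ly49-negative cells (1.05, 0.26 to 1.92). Cx3cr1 was at 36.3 CPM in knockout and 6.48 CPM in wild-type NK cells, from 46 and 6 UMIs. Of 18 measured transcription factors, 5 were higher and 1 lower, at a median of 0.27, which turned to -0.16 when scaled to NK-enriched genes. Eomes was at 155 and 180 CPM (-0.21, -0.52 to 0.09) and Tbx21, T-bet, at 80.4 and 62.6 CPM (0.36, -0.12 to 0.85), neither apart beyond counting error. Ets1 was at 733 CPM in knockout and 419 CPM in wild-type NK cells (0.81, 0.64 to 0.98), and Irf8 at 912 and 606 CPM (0.59). Zeb2, a repressor that NK cells need to mature, was the lower one, at 108 and 185 CPM (-0.77), and was at 418 and 438 CPM in the other barcodes.

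**Figure D4:**
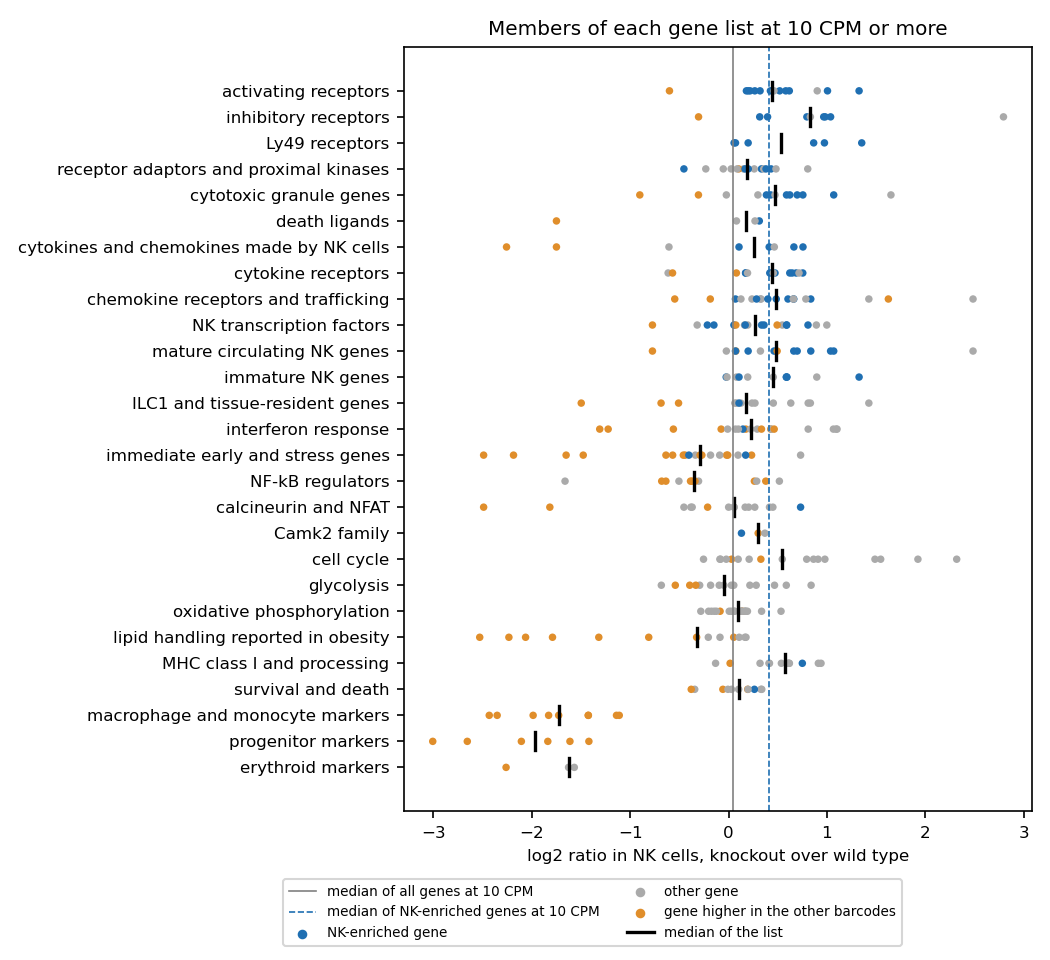
Log2 ratios in NK cells, knockout over wild type, of the members of each gene list at 10 CPM or more (points), with the list median (black bar), the median of all genes (0.04, grey line) and of NK-enriched genes (0.41, dashed line). List medians right of the dashed line reached 0.83 for inhibitory receptors and included those of MHC class I, cell cycle, Ly49, trafficking, mature and immature NK, granule, activating-receptor and cytokine-receptor genes, and all macrophage, progenitor and erythroid markers left of zero.

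Histone and cell-cycle genes were the most frequent among the highest ratios. Of the 12 highest ratios, 8 were histone or cell-cycle genes: Hist1h2ae, Hist1h2ap, Hist1h1b, Hist1h4h, Mki67, Top2a, Hist1h4d and Hist1h1e. Hist1h2ap, a core histone, was at 289 CPM in knockout and 54.0 CPM in wild-type NK cells (2.42, 1.99 to 2.88). Mki67, a proliferation marker, was at 117 and 39.9 CPM (1.55, 1.02 to 2.11) and Top2a, a topoisomerase of dividing cells, at 115 and 41.0 CPM (1.49). Mki67 had a UMI in 16 knockout and 23 wild-type NK cells and Top2a in 26 and 16, whereas Hist1h4d had one in 108 and 69 and Hist1h1e in 162 and 132. Cells with at least 2 UMIs of Mki67 and Top2a numbered 17 in the knockout library (8.99%, 5.33 to 14.0) and 8 in wild type (3.96%, 1.73 to 7.65), with overlapping intervals, and held 280 of 294 and 48 of 75 UMIs of the 2 genes. For Hist1h2ae, 1 knockout cell held 51 of 140 UMIs. Without the cells with at least 2 UMIs of Mki67 and Top2a the median of the cell-cycle list was -0.15, against 0.55 with them, and Hist1h2ap was at 63.7 CPM in knockout and 44.6 CPM in wild-type NK cells. Hist1h1e, a linker histone, was then at 819 and 358 CPM (1.19), Hist1h4h at 72.9 and 31.7 CPM (1.20) and Hist1h4d at 175 and 97.5 CPM (0.85), so these histone genes also differed outside those cells. The histone genes are near-copies of each other, and their transcripts mostly lack the poly(A) tail that the libraries capture. In T cells Hist1h2ap was at 256 CPM in knockout and 76.9 CPM in wild type.

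The other genes among the 12 highest were Gimap1os, Cd7, Jakmip1 and Gna15. All 12 were also higher in knockout T cells, at log2 ratios of 0.57 to 1.74. In B cells the ratios of the 12 ran from -1.52 for Mki67 to 1.99 for Hist1h1e. Cd7, an immunoglobulin-family protein of lymphocytes (chr11:121036747-121039418, minus strand), was at 336 CPM in knockout and 134 CPM in wild-type NK cells (1.33, 1.04 to 1.63). It was at 495 and 203 CPM in negative, 304 and 110 CPM in positive and 81.8 and 69.9 CPM in Gzma-high cells. After thinning, 30.2% of knockout and 14.4% of wild-type NK cells had a Cd7 UMI, against 0% of B cells in both libraries. Gna15, a G-protein alpha subunit, was at 82.0 and 36.7 CPM. Gimap1os, at 86.7 and 31.3 CPM, is antisense to its neighbour, and without strand in the counting notes its reads cannot be told apart from that gene's.

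Of 12 genes of MHC class I and its processing, 6 were higher and 0 lower, at a median of 0.57, or 0.15 when scaled to NK-enriched genes. H2-K1 was at 2454 CPM in knockout and 1845 CPM in wild-type NK cells (0.41, 0.33 to 0.50), and H2-T23, which encodes the MHC class Ib molecule Qa-1 seen by NKG2A, at 211 and 110 CPM (0.94, 0.61 to 1.28). Both also differed in T cells, H2-K1 at 0.46 and H2-T23 at 1.17, and in B cells, at 0.41 and 0.76. Of 19 measured interferon-response genes, 4 were higher, among them Isg15 at 39.4 and 18.4 CPM (1.10) and Zbp1 at 67.8 and 32.4 CPM (1.07), and 2 were lower. None of 20 genes of oxidative phosphorylation differed 1.5-fold.

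Immediate early genes, which cells switch on within minutes of a stimulus or of tissue digestion, included some of the lowest ratios among the lists. Of 21 measured, 5 were lower in knockout NK cells and 1 was higher, at a median of -0.29. Egr1 was at 124 CPM in knockout and 389 CPM in wild-type NK cells (-1.65, -1.93 to -1.38), Jun at 146 and 406 CPM (-1.48) and Atf3 at 44.2 and 201 CPM (-2.19). Junb, at 1812 and 1836 CPM, did not differ (-0.02), and Btg2 was the higher one, at 1082 and 651 CPM (0.73). In T cells Egr1 was also lower, at 190 and 406 CPM. In all other barcodes it ran the other way, at 2922 CPM in knockout and 1514 CPM in wild type. Of 12 regulators of NF-kB, 3 were lower and 0 higher, with Nfkbid at 22.9 and 72.3 CPM.

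The 12 lowest genes included Fstl1, Fbn1, Col3a1, Col1a2, Trem2, Lpl, Dpt, Lum, Mgp, Lgals3 and Ctsl, each at a higher level in the other barcodes of both libraries. These are genes of fibroblasts and their matrix (Fstl1, Fbn1, Col3a1, Col1a2, Dpt, Lum, Mgp) or of macrophages (Trem2, Lgals3, Ctsl), and Lpl is the lipoprotein lipase of fat and of lipid-laden macrophages. Lgals3, galectin 3, was at 190 CPM in knockout and 977 CPM in wild-type NK cells, and at 896 and 2782 CPM in the other barcodes. Lpl was at 77.3 and 446 CPM, with a UMI after thinning in 12.2% of knockout and 48.0% of wild-type NK cells, and in 11.4% and 38.7% of B cells. The same 12 genes had log2 ratios of -3.58 to -1.72 in T cells, which share libraries but no cell with the NK gate. Col3a1 entered the rule through the stromal limit.

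Markers of several other cell types of the fraction were lower too, but not of all. All 9 macrophage and monocyte markers were lower in knockout NK cells, with a summed level of 567 CPM against 1774 CPM in wild-type NK cells. All 6 progenitor markers were lower, at 476 and 1628 CPM summed, and all 3 erythroid markers, at 3318 and 10112 CPM. The rule itself limits C1qa, C1qb and C1qc of the macrophage markers and Col1a1, Col3a1 and Dcn of the progenitor markers. The other members, Lyz2, Csf1r, Adgre1, Cd68, Mrc1 and Apoe, and Gsn, Pdgfra and Mfap5, did not enter the rule. The summed T-cell markers were higher, at 832 CPM in knockout and 573 CPM in wild-type NK cells, and so were the summed ILC2 markers, at 181 and 140 CPM. Most of the T-cell sum was Trbc1 (397 and 298 CPM) and Trbc2 (392 and 221 CPM), which NK cells are known to make. Neutrophil markers were low in both, at 11.0 and 10.8 CPM, and mesothelial markers at 0.789 and 5.40 CPM, with 2 of 3 at 0 in the knockout. The dendritic markers Cd74 and H2-Ab1 were at 483 and 331 CPM in knockout, against 890 and 486 CPM in wild-type NK cells. Of lipid-handling genes, 6 of 13 measured were lower and 0 higher, such as Plin2, a lipid-droplet coat protein, at 40.2 and 189 CPM, and each of the 6 was at a higher level in the other barcodes. The part of free or other-cell RNA in these differences was not tested. With cells that held a UMI of Cd79a, Cd79b, Csf1r, Pdgfra or Cdh5 left out, 88 genes were lower and 46 higher.

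After thinning to 1500 UMIs, the share of NK cells with a UMI lay above the wild-type interval in the knockout library for 61 of 2629 genes (2.32%) and below it for 94 (3.58%), by intervals that did not overlap. Among genes of the NK lists 14 lay above, such as Nkg7 (87.8% of knockout and 72.8% of wild-type cells), Klrd1 (54.5% and 36.6%) and Serpinb9 (57.1% and 35.6%). Below lay 15, such as Egr1 (19.0% and 51.0%), Jun (19.0% and 44.1%) and Cd36 (8.47% and 31.7%). The list genes were not held to the floor of 50 CPM that the 2629 genes met. Bach2, Egr2 and Nfkbid, which are counted here, lay under it. The list counts therefore cannot be set against the shares of the 2629 genes. Of 31 markers of other cell types in none of those lists, 15 more lay below and 0 above. These 15 include C1qa, C1qb, C1qc, Col1a1, Col3a1 and Dcn, which the rule limits. The 14 above include the gate marker Klre1. In B cells Egr1 was at 22.2% and 42.5%. Without thinning, 83 genes of the NK lists lay above and 12 below, at the unequal depths given above.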

How the data were processed

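The authors deposited 1 matrix of raw UMI counts per library. Per the submitters' processing notes, Cell Ranger 5.0.0, Seurat 4.1.1 and build mm10 were used, and no filter or strand setting is given in the sources used here. A description label names embryonic hindlimb, whereas tissue and source labels name adipose tissue, which was used. The members, lists and tests were chosen with earlier results of these data known.

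The gate was applied to the deposited counts. UMIs were summed over the gated cells of a library and divided by their total (CPM). Intervals are exact: Poisson for levels, conditional for ratios and Clopper-Pearson for shares, at 95%. The text names the 12 genes at either end of the ratios (without ribosomal, mitochondrial, haemoglobin, antigen-receptor, Gm and Rik genes), the 12 highest over T cells, and of every list the most abundant and most different member; members of the lists of gate markers, transcription factors, Ly49, granule and Camk2 genes could all be named. Other genes, among them those of the subsets and examples of single lists, were chosen after their values were seen. Each cell was thinned to 1500 UMIs for shares. Scrublet scores of 0.25 or more marked 4.10% of knockout and 2.79% of wild-type kept barcodes, and 0 and 4 NK cells, which were kept. Of the lists, B-cell (151 and 185 CPM summed), endothelial (106 and 335), mast-cell (52.8 and 78.8), ILC2 (181 and 140), T-cell (832 and 573) and dendritic markers (821 and 1389) are given as knockout and wild-type NK sums. A few genes that the rule names are not reported here. Named genes matched GENCODE M21 by ID (130 of 130). The calculation of ratios and intervals was checked on simulated counts, drawn as independent Poisson counts. UMIs gathered in few cells and differences between mice were not simulated, so the check does not cover these. Python 3.11.15 with numpy 2.4.6, scipy 1.17.1 and scanpy 1.11.5 (its Scrublet), and R 4.3.3 with edgeR 4.0.16 for TMM scaling factors only, were used. The alternatives were other gates, quality limits, scalings, expression floors, folds and thinning depths, cells left out and subsets weighted equally.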

Additional observations from a re-analysis of the deposited data

Results flagged for a closer look

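Ifi27l2a, an interferon-inducible gene, differed in opposite directions in NK cells and T cells of the same libraries. It was at 61.5 CPM in knockout and 144 CPM in wild-type NK cells, a log2 ratio of -1.22 (-1.65 to -0.81), and at 810 CPM in knockout and 334 CPM in wild-type T cells, a ratio of 1.28 (1.19 to 1.37). In B cells the ratio was 0.81, and in all other barcodes the level was 651 CPM in knockout and 440 CPM in wild type. The difference between NK and T cells was not tested, since each genotype is 1 library.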

How the results depend on the processing

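No paired analysis was possible because each genotype is 1 library and no test was run. The 2 libraries differ in depth and in RNA of other cell types, and these cannot be told apart from the genotype. NK cells were the larger share in knockout under every denominator and filter except the lymphocyte gates together.

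Counts of genes at least 2-fold higher in knockout NK cells (29) and lower (81) moved by more than 1.5 times under these settings. The higher count was 51 with cells thinned to 1500 UMIs, 46 with cells holding UMIs of another type left out and 8 with scaling to NK-enriched genes, where the lower count was 149. With a floor of 20 CPM they were 87 and 227, with 100 CPM 10 and 41, with 1.5-fold 213 and 133, and with 3-fold 4 and 49. List members higher (69) and lower (27) moved to 17 and 70 with scaling to NK-enriched genes and to 17 and 16 at 2-fold. The lower count was 42 after thinning and 17 for members at 50 CPM. Genes of the NK lists with non-overlapping detection above the wild type (14) were 83 without thinning and 7 with the stricter gate. The NK share, 2.35% in knockout and 1.54% in wild type, was 1.23% and 0.558% with thinned barcodes, 4.80% and 2.75% among Ptprc barcodes, 1.99% and 1.18% with an Ncr1 UMI, and 11.8% and 12.9% of the lymphocyte gates. In wild type alone it was outside its interval also at 2.07% without haemoglobin-rich barcodes, 1.32% and 2.36% with the looser and the tighter filter, and 1.08% with the stricter gate. Without the cells holding at least 2 UMIs of Mki67 and Top2a, a setting built on these genes, the log2 ratio of Mki67 was -3.52. The cause of the other moves was not tested, beyond those built from fewer genes or another limit. The settings that weigh subsets equally, leave out cycling cells, scale to NK-enriched genes or use the lymphocyte gates were chosen after seeing the data.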

Other observations

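Some gene groups of NK cells differed little between the libraries. Of 16 receptor adaptors and proximal kinases, 1 was at least 1.5-fold higher in knockout NK cells (Plcg2, a phospholipase of receptor signalling, log2 ratio 0.81) and 0 were lower, at a median of 0.18, or -0.24 when scaled to NK-enriched genes. Of 15 genes of calcineurin and NFAT signalling, 1 was higher and 2 were lower, at a median of 0.06 (-0.36 when so scaled). Of 11 survival and death genes, 0 differed 1.5-fold. Of 15 glycolysis genes, 2 were higher, among them the glucose transporter Slc2a1 (0.84), and 1 was lower. Of 4 death ligands, 1 was lower, Tnf, at 8.67 CPM in knockout and 29.1 CPM in wild type. Its level in the other barcodes was higher, at 71.8 and 76.8 CPM.

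The list of mature circulating NK genes held 14 measured members, 6 higher and 1 lower in knockout, at a median of 0.48. The list of immature NK genes held 11, 5 higher and 0 lower, at a median of 0.46. Both medians lay near the 0.41 of all NK-enriched genes at 10 CPM or more. Of 14 measured ILC1 and tissue-resident genes, 4 were higher and 2 lower. Among them Rgs1, a regulator of G-protein signalling, was at 748 CPM in knockout and 426 CPM in wild-type NK cells (0.81).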
